A study of Mus musculus with 6 samples.

Results

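Expression of 10 genes of fat cells was followed through development of the mouse gastrocnemius, the large calf muscle. The genes, Adipoq, Cfd, Pck1, Lep, Plin1, Plin4, Cidec, Fabp4, Cidea and Ucp1, are 10 of the 23367 genes in the deposited table and were taken by symbol; all 10 passed the count filter described with the tests. They were selected on their FPKM levels across the stages of these same libraries, so these levels and fold changes are a description and carry no test. Poly(A)-selected RNA of whole muscle from wild type FVB mice, with no treatment named, was sequenced in 6 libraries at 5 stages. These were embryonic day 18.5 (E18.5, a pool of males and females), postnatal day 2 (PN2, a pool of males), postnatal day 14 (PN14, 2 males in separate libraries), postnatal day 28 (PN28, 1 male) and adult at 22 weeks (1 male). Only PN14 has replicates, sex changes together with age between E18.5 and PN2, and the column headers place each library in a sequencing lane of its own, so neither sex at that step nor lane can be told apart from stage.

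White fat cells store triglyceride in a single large droplet and release hormones, whereas brown fat cells hold many small droplets and burn fatty acids for heat. Muscle contains some fat cells between its fibres and around its vessels, and they arise from fibro-adipogenic progenitors of the connective tissue. Adipoq, Cfd and Lep encode secreted proteins of fat cells, Plin1, Plin4 and Cidec proteins on the lipid droplet, and Pck1 and Fabp4 proteins of lipid metabolism and fatty acid transport. Ucp1, the mitochondrial protein that makes heat by leaking protons, defines brown fat, and Cidea, a lipid droplet protein, is typical of it in the mouse.

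Total expected counts were 125402932 to 157868359 per library. Levels are given as FPKM, fragments scaled to transcript length and library size, which can be compared between genes. Fold changes between stages use counts scaled by TMM, which sets the bulk of genes level. This was chosen because, scaled by library size alone, the median gene drifts down with age. The cause of this drift was not tested. With library size alone the median gene shifted by −0.66 on the log2 scale from PN2 to PN14 and by −1.08 from E18.5 to adult, against −0.01 and −0.05 with TMM. As a check of the muscle label, 10 myofibre genes added up to 27703 FPKM at E18.5 and 88855 to 121814 FPKM from PN14 on. In whole muscle, fewer fat cells and less RNA per fat cell cannot be told apart.

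Adipoq, Plin1, Pck1 and Cidec were near 0 or low at E18.5, high at PN2, lower in both PN14 mice and higher again at PN28. Cfd was also lower at PN14 than at PN2 but went far past its PN2 level at PN28, and Lep was at 0.18 FPKM or less up to PN2. Cidea was also highest at PN2, but it was already well expressed at E18.5, did not recover at PN28 and was at 0.27 FPKM in the adult, while Ucp1 stayed below 0.5 FPKM throughout. The description of these genes as appearing after birth did not hold for Fabp4, Cidea and Plin4, which were already at 372, 8.01 and 5.05 FPKM at E18.5.

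**Figure D1:**
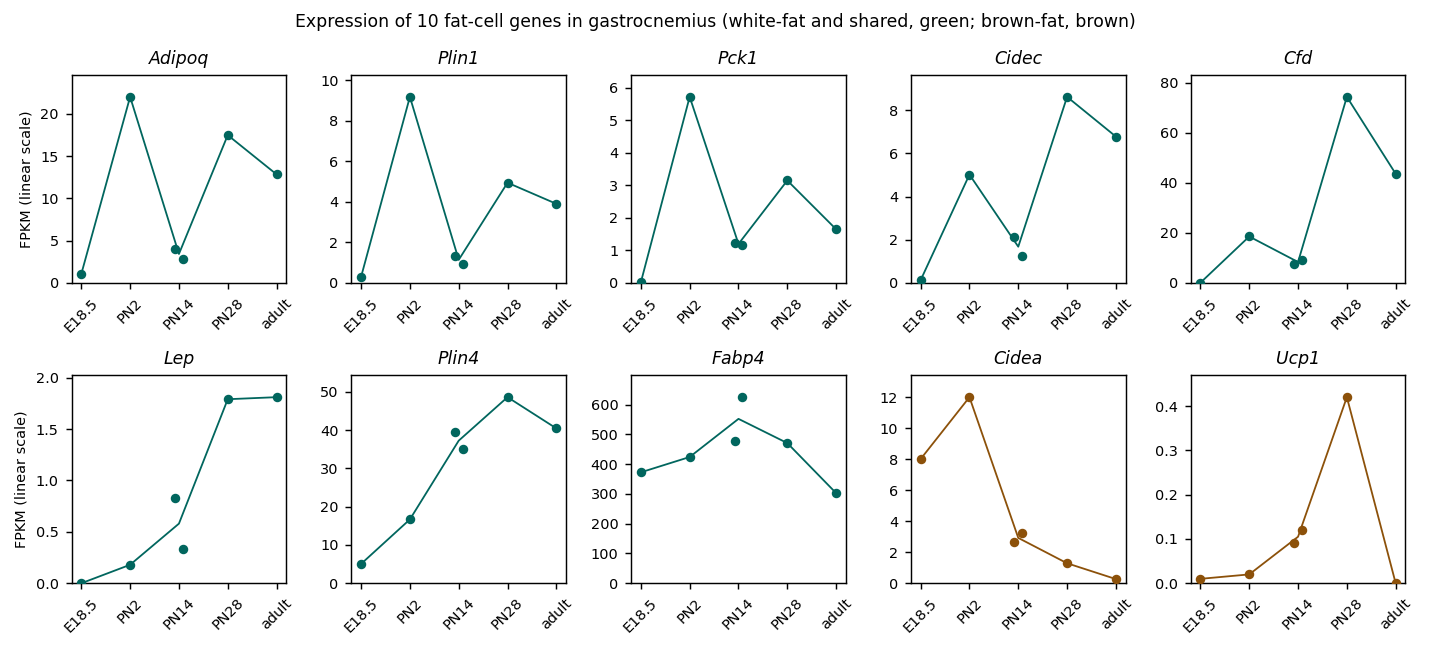
FPKM (linear axis, one scale per panel) of the 10 fat-cell genes at 5 stages; points are libraries, lines join stage values (at PN14 the mean of 2 mice), green marks white-fat or shared genes and brown marks brown-fat genes. Adipoq goes from 1.06 at E18.5 to 21.99 at PN2, with 4.03 and 2.82 for the PN14 mice, whereas Cidea goes from 12 at PN2 to 0.27 in the adult.

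Adipoq, which encodes the hormone adiponectin (mm9, GENCODE annotation, chr16:23146609-23158101, at most 3 exons in a transcript), was at 1.06 FPKM at E18.5, 21.99 at PN2, 4.03 and 2.82 at PN14, 17.47 at PN28, with 12.83 in the adult. The log2 fold change was 4.37 (SE 0.440) from E18.5 to PN2, −2.00 (SE 0.317) from PN2 to PN14 and 2.55 (SE 0.317) from PN14 to PN28. Both PN14 mice lay far below the PN2 and PN28 libraries and above E18.5. Plin1, perilipin 1, coats the droplet of fat cells and restrains lipolysis (chr7:86866050-86877662, 9 exons). It was at 0.30 FPKM at E18.5, 9.17 at PN2, 1.34 and 0.94 at PN14, 4.94 at PN28, with 3.90 in the adult. This is the course of Adipoq in miniature: the Adipoq level was 2.40 to 3.54 times that of Plin1 in all 6 libraries, although Adipoq itself spanned 20.7-fold.

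Pck1, the cytosolic enzyme that feeds glycerol synthesis in fat and glucose synthesis in liver and kidney (chr2:172978549-172984774, 10 exons), was at 0.02 FPKM at E18.5 from 9 counts. It reached 5.72 FPKM at PN2, was 1.22 and 1.18 at PN14 (1.20 ± 0.0283, SD, n = 2), 3.15 at PN28, with 1.65 in the adult. Its log2 fold change from E18.5 to PN2 was 7.98 (SE 0.448), and from PN2 to PN14 it was −1.59 (SE 0.252). Genes of hepatocytes and kidney tubules, which also use Pck1, added up to 0.13 to 0.33 FPKM over a list of 10 in every library, with Umod, Slc34a1 and Slc12a1 at 0 throughout.

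Cidec promotes the merging of droplets into the single large one of white fat (chr6:113374628-113385754, 6 exons). It was at 0.13 FPKM at E18.5, 5.02 at PN2, 2.11 and 1.25 at PN14, 8.62 at PN28, with 6.78 in the adult. Relative to Adipoq it moved from 12.3% at E18.5 and 22.8% at PN2 to between 44.3% and 52.8% in the 4 later libraries.

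Which of PN2 and PN28 was higher depended on the scale for Adipoq and Pck1. Plin1 was higher at PN2 on both scales, though nearly level in scaled counts, and Cidec was higher at PN28 on both. Adipoq at PN2 was 1.26 times its PN28 level in FPKM but 0.680 times in TMM-scaled counts, and Pck1 was 1.82 times in FPKM and 0.982 times in scaled counts. The dip at PN14 did not depend on it: both PN14 mice lay below both neighbouring stages in Adipoq, Plin1, Pck1, Cidec and Cfd on either scale. A dip of at least 2-fold against both neighbours in both mice was found in 4 of 9 members in FPKM (Adipoq, Cidec, Pck1 and Plin1) and in 3 in scaled counts (without Cidec). Among all 12849 genes that reached 1 FPKM, the same dip was found in 0.412% in FPKM and 0.304% in scaled counts. In the 6 lists of other fat-cell genes it was seen in 3 of 81 in FPKM (Adig, Fasn and Tusc5) and in Fasn, fatty acid synthase, in scaled counts. The choice of members used these levels, so their share supports nothing further.

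Promoters of the members were read from the RefSeq table, whose assembly is GRCm38.p6, and each was placed in mm9 by an exact match. Entries of 8 of the 10 genes were used, with 9 start sites because Cidec has 2, and none was used for Fabp4 and Cidea. Adipoq and Plin1 are shown as the pair that moved together, Lep as the late gene and Ucp1 as the brown-fat gene. Each window runs from 250 bases before the start site to 50 after it, on the gene's strand: Adipoq chr16:23146359-23146658 (plus), Plin1 chr7:86877613-86877912 (minus), Lep chr6:29009971-29010270 (plus) and Ucp1 chr8:85813997-85814296 (plus). Capitals mark matches on either strand to the CCAAT box (CCAAT), the C/EBP motif (TTGCNNAA) or the nuclear receptor half-site (AGGTCA).
Adipoq: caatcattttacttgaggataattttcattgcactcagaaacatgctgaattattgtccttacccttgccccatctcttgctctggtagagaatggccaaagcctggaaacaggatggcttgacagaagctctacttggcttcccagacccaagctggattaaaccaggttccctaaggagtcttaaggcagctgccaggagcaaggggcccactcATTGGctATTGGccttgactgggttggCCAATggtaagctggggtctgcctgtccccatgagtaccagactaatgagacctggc
Plin1: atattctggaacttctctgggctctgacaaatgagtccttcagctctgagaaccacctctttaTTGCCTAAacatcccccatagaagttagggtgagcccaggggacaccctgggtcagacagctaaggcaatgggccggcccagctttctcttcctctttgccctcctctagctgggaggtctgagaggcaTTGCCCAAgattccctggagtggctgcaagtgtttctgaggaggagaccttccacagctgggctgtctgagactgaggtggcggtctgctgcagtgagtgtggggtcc
Lep: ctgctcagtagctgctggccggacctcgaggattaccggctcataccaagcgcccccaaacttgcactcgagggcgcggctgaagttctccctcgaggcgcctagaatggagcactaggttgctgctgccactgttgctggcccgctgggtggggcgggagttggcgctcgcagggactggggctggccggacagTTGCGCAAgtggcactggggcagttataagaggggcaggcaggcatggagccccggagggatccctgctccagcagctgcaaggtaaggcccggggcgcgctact
Ucp1: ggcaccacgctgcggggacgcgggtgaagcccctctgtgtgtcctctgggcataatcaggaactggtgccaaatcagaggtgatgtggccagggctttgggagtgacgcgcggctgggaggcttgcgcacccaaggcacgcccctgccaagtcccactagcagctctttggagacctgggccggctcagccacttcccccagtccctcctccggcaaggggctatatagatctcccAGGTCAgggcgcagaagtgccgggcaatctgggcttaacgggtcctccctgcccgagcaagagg
The C/EBP motif was present in 3 of the 9 windows (Plin1 with 2 matches, Lep and one Cidec window), and in 10.8% of all 32851 mouse promoters of the same length. The CCAAT box was present in 2 (Adipoq with 3 matches, and Plin4) against 37.4%, and AGGTCA in 1 (Ucp1) against 16.3%. Neither TATAAA nor TGACGTCA, the full form of the cyclic AMP response element, was present in any of the 9, against 13.6% and 1.79% of all promoters. Only exact letters were searched, so near matches, such as TTACGTCA in the Pck1 window, were not counted. These are letter matches and no binding was measured.

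Cfd, which encodes the complement protease adipsin (chr10:79353598-79355401, 5 exons), was at 0.09 FPKM at E18.5 from 12 counts and at 18.56 at PN2. It was 7.38 and 9.35 in the PN14 mice, 74.33 at PN28, with 43.60 in the adult. Its log2 fold change was 7.71 (SE 0.294) from E18.5 to PN2, −0.50 (SE 0.166) from PN2 to PN14 and 3.39 (SE 0.164) from PN14 to PN28. Unlike Plin1, Cfd did not keep a fixed proportion to Adipoq. It was at 0.0849 times the Adipoq level at E18.5, 0.844 times at PN2, 1.83 and 3.32 times at PN14, 4.25 times at PN28 and 3.40 times in the adult.

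Lep, the hormone leptin that reports fat stores to the brain (chr6:29010220-29023877, 3 exons), was the last to come up. A single count was recorded at E18.5, and FPKM were 0.18 at PN2, 0.83 and 0.33 at PN14, 1.79 at PN28, with 1.81 in the adult. The adult to E18.5 ratio was 1864 with a 95% counting interval of 334 to 73731, and the PN2 to E18.5 ratio was 90.7 (15.9 to 3622). The PN2 library, which held the highest Adipoq of the series in FPKM, had Lep at 0.819% of it, against 10.2% to 20.6% in the 4 later libraries. The 2 PN14 mice differed in Lep FPKM by more than in any other member, and the log2 fold change from PN2 to PN14 was 1.41 without replicate 1 and 3.0 without replicate 2.

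**Figure D2:**
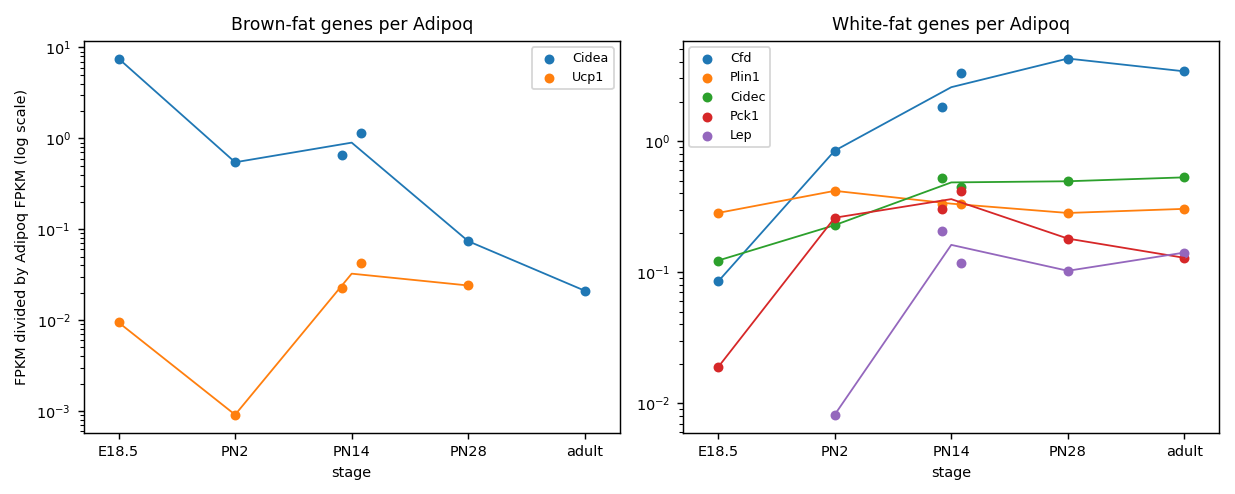
FPKM of brown-fat genes (left) and white-fat genes (right) divided by the FPKM of Adipoq in the same library, by stage on log axes; points are libraries, lines join stage values (at PN14 the mean of 2 mice), and values at 0 (Ucp1 in the adult, Lep at E18.5) are left out. Plin1 stays between 0.283 and 0.417 times Adipoq, Cfd goes from 0.0849 to 4.25 times and Cidea from 7.56 to 0.0210 times.

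Plin4 and Fabp4 did not follow the course of Adipoq, and both are used outside fat. Plin4, a droplet protein that is also abundant in muscle fibres (chr17:56240014-56249225, 9 exons), was at 5.05 FPKM at E18.5, 16.67 at PN2, 39.36 and 35.08 at PN14, 48.57 at PN28, with 40.42 in the adult. It did not dip at PN14, and over the 6 libraries its log2 level had r = 0.94 with the mean of the myofibre genes (0.97 in scaled counts). This was not particular to Plin4: Lep had r = 0.92 (0.95) with the same mean and 0.91 (0.97) with Plin4. Fabp4, a fatty acid carrier of fat cells that capillary endothelium and macrophages also make (chr3:10204347-10208576, 4 exons), was the most abundant member, at 372.43, 423.86, 479.04 and 624.73, 470.59 and 302.61 FPKM in stage order. Its log2 fold change from E18.5 to adult was 0.73 (SE 0.303), and −0.30 with library size alone, so its direction depends on the scaling. Its r with the mean of 10 endothelial genes was 0.78 (0.73 in scaled counts) and with Adipoq −0.19 (0.31). With the mean of the myofibre genes r was 0.19 (0.87), and with that of a list of macrophage genes 0.04 (−0.35). Summed endothelial FPKM were 264 and 411 in the PN14 mice, with the higher value in the mouse with the higher Fabp4. These correlations describe 6 libraries that share their stages, and the part of fibres and vessels in Plin4 and Fabp4 was not tested.

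Cidea was the one member whose E18.5 level exceeded every level from PN14 on. It was at 8.01 FPKM at E18.5, 12 at PN2, 2.63 and 3.22 at PN14 (2.93 ± 0.417, SD, n = 2), 1.29 at PN28, with 0.27 in the adult, the last from 43 counts. Its log2 fold change was 0.58 (SE 0.295) from E18.5 to PN2, −1.38 (SE 0.247) from PN2 to PN14, −0.94 (SE 0.273) from PN14 to PN28 and −2.11 (SE 0.339) from PN28 to adult. All libraries from PN14 on lay below both earlier ones. Ucp1 (chr8:85814247-85822355, 6 exons) had 2 counts at E18.5, 6 at PN2, 18 and 29 at PN14, 100 at PN28 and none in the adult, for a highest level of 0.42 FPKM. Ucp1 at PN28 was 32.5 times its PN2 level (95% counting interval 14.4 to 90.8) and at least 29.1-fold higher than in the adult, where 3 counts were taken as the limit per library. The PN28 peak comes from 1 mouse, and without it the highest Ucp1 level was 0.12 FPKM, in a PN14 mouse; intervals cover counting error only.

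Set against Adipoq, Cidea was far higher at E18.5 and far lower from PN28 on, with no steady course between. At E18.5 Cidea was 7.56 times the Adipoq level, at PN2 0.546 times, in the PN14 mice 0.653 and 1.14 times, at PN28 0.0738 times and in the adult 0.0210 times. Against Plin1, Cidea was 26.7 times as high at E18.5, 1.31 times at PN2 and 1.96 and 3.43 times in the PN14 mice. The ratio was 359-fold lower in the adult than at E18.5 with Adipoq, 386-fold lower with Plin1 and 32.4-fold lower with the sum of the 8 white-fat and shared members, which is mostly Fabp4. From E18.5 to PN2 the ratio to Adipoq became 13.8-fold lower, but with that sum the ratio at E18.5 was 0.882 times that at PN2. Ucp1 was 0.0910% of Adipoq at PN2, when Cidea was highest, 2.23% and 4.26% in the PN14 mice and 2.40% at PN28, so relative to Adipoq its highest value was in a PN14 mouse.

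Other defining brown-fat genes did not share one course. Elovl3, a fatty acid elongase of brown fat and skin, was at 0.96, 1.15, 0.38 and 0.44, 0.17 and 0.09 FPKM in stage order, close to the course of Cidea (r = 0.98 on either scale). Ebf2, a transcription factor of brown-fat precursors, was at 9.77 FPKM at E18.5, above Cidea, 8.49 at PN2, 1.92 and 2.65 at PN14, 1.89 at PN28 and 1.40 in adult muscle. Lhx8, Zic1 and Otop1 stayed below 1 FPKM in all libraries, and Otop1, a proton channel, was listed at 0 at E18.5 and at 0.25 to 0.38 from PN14 on. Cidea also moved with the mean of the fibro-adipogenic progenitor genes (r = 0.94, and 0.90 in scaled counts) and not with Ucp1 (r = −0.16 and −0.07). In FPKM Cidea also had r = 0.87 with the macrophage mean and 0.81 with the endothelial mean, but 0.32 and 0.24 in scaled counts. From PN2 to PN14 the median log2 fold change of the progenitor genes tested was 0.0089, against −1.38 for Cidea. Keratinocyte genes, which mark skin, added up to 35.2 FPKM at E18.5 and 4.41 to 7.51 later. Their part and that of progenitors in the Cidea and Elovl3 levels was not tested.

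**Figure D3:**
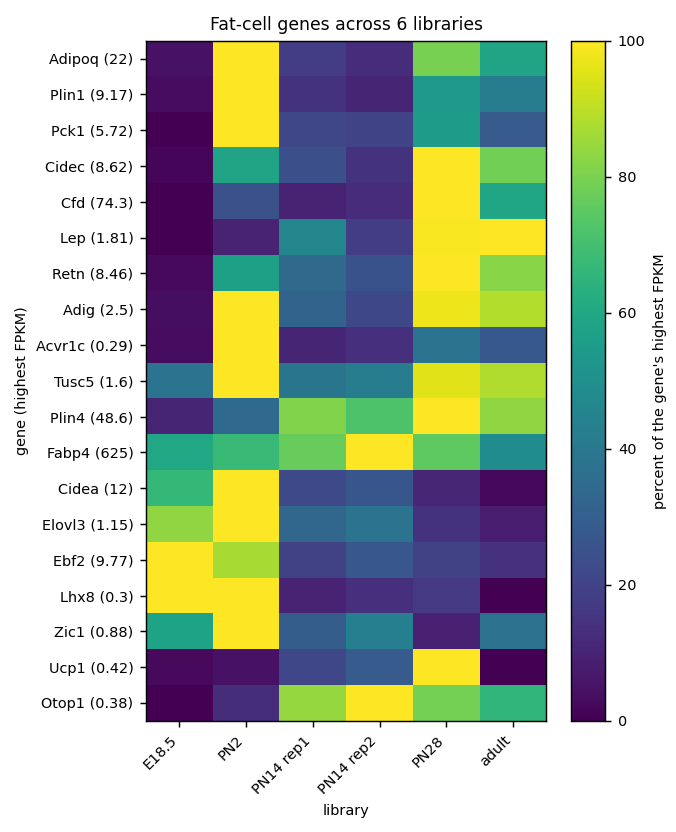
Heat map of 19 fat-cell genes (rows, highest FPKM in brackets) in 6 libraries (columns), coloured by the percent of each gene's own highest FPKM. In FPKM, Adipoq, Plin1 and Pck1 are brightest at PN2 (in scaled counts Adipoq and Pck1 are higher at PN28), Cfd at PN28, and Cidea, Elovl3, Ebf2 and Lhx8 in the 2 earliest libraries.

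Genes outside the members with the most similar course were ranked by Pearson r with the mean log2(FPKM + 0.1) of the 8 white-fat and shared members, among 12840 genes. This mean mixes unlike courses: r with Adipoq was 0.55 for Plin4, 0.62 for Lep and −0.19 for Fabp4. For the rest it was 0.88 (Cfd) to 0.99 (Plin1). Retn, which encodes the fat hormone resistin, was the closest (r = 0.998, and 0.997 in scaled counts), at 0.20 FPKM at E18.5, 4.82 at PN2, 2.92 and 2.14 at PN14, 8.46 at PN28, with 6.97 in the adult. Next were Gmpr (0.992), Snx19 (0.985), Adig (0.973), Ccl6 (0.969), Cpped1 (0.969), Dennd1b (0.961), Mrs2 (0.958), Lpl (0.954) and Cp (0.944). Only some of these spanned a wide range: Gmpr stayed between 75.11 and 108.37 FPKM and its r was 0.878 in scaled counts, whereas Adig, a small membrane protein of fat cells, went from 0.09 to 2.50. For the mean of Ucp1 and Cidea, which mixes 2 unlike courses, the closest were Sparc (0.991), Mxra8 (0.988), Nrep (0.986), C1qtnf6 (0.984) and Sdc2 (0.984).

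Tests were made on 94 other fat-cell genes in 6 lists, of which 93 passed the count filter. These lists were chosen with earlier results of these data known, so a share above that of all genes supports nothing further. Calls needed an adjusted p below 0.05 in edgeR's quasi-likelihood test (Benjamini-Hochberg over 16882 genes) together with a change of at least 2-fold. From PN2 to PN14, the step over which Adipoq and Plin1 went down, 27 rose and 11 fell, 40.9% of the 93 against 23.0% of all genes tested (11.8% rising, 11.2% falling), with a median log2 fold change of 0.25 against −0.01. With library size alone 19 rose and 31 fell, and the median was −0.41, so the balance of directions depends on the scaling. From E18.5 to adult 43 rose and 16 fell (63.4% against 44.9% of all genes, 21.4% rising and 23.6% falling, median 0.80 against −0.05), and 29 rose and 30 fell with library size alone.

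Genes that make and handle triglyceride mostly rose where they were called from PN2 to PN14. Of 15 genes of lipogenesis and triglyceride synthesis 7 rose and 1 fell (53.3% called, against 23.0% of all genes tested). Mlxipl, the carbohydrate-responsive factor ChREBP, went from 2.99 FPKM at PN2 to 23.49 and 21.23 (log2 fold change 3.57, SE 0.275, edgeR adjusted p = 0.00317). Scd1, the desaturase, rose by 2.49, Lpin1 by 2.15 and Gpam by 1.92 on the log2 scale, and Fasn fell by 1.10. Of 16 lipid droplet and lipolysis genes 6 rose and 1 fell (43.8% called). Gpd1 rose by 2.92, Fitm2 by 1.98, Aqp7 by 1.96 and Fitm1 by 1.93, and Pde3b, which damps lipolysis, fell by 1.20. Several of these, such as Gpd1, are also strong in muscle fibres, and the 10 myofibre genes had a median log2 fold change of 2.38 over the same interval. Their part in these changes was not tested.

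The white-fat list was split. The share called was 36.4% from PN2 to PN14 and 68.2% from E18.5 to adult, against 23.0% and 44.9% of all genes tested. Of 22 secreted and surface genes 4 rose from PN2 to PN14, Slc2a4, the insulin-responsive glucose transporter of fat and muscle, by 1.85, Pnpla3 by 1.62, Sncg by 1.44 and Adipor1 by 1.27. Another 4 fell: Agt, angiotensinogen, by 2.43, from 22.69 FPKM to 1.83 and 3.64, Acvr1c by 2.32 at under 1 FPKM, Slc7a10 by 1.62 and Rbp4, a retinol carrier, by 1.38. With library size alone the calls of Pnpla3, Sncg and Adipor1 were lost. From E18.5 to adult 10 of the 22 rose and 5 fell, led by Retn (log2 fold change 6.04, SE 0.570, edgeR adjusted p = 0.00133) and Adig (5.65, SE 0.692, adjusted p = 0.00211).

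Among 12 adipogenic transcription factors 41.7% were called from PN2 to PN14, against 23.0% of all genes tested. In this list 4 rose (Klf15 by 2.43, Cebpb by 2.25, Nr1h3 by 1.98 and Cebpd by 1.09, a call lost with library size alone) and Klf5 fell by 1.16. Pparg, the master regulator of fat-cell formation, was at 4.06 FPKM at PN2, 2.41 and 2.46 at PN14 and 3.46 at PN28, and Cebpa at 4.32, 2.18 and 2.29, and 3.54; neither was called there. Of 18 brown-fat genes 6 rose and 2 fell (44.4% called). Among those that rose were Cox7a1 by 4.12 and Cox8b by 2.66, mitochondrial subunits that muscle also makes, and Otop1 by 3.35 at under 1 FPKM, while Ebf2 fell by 1.25 and Lhx8 at under 1 FPKM fell by 2.45. Of 10 progenitor genes tested none rose and 2 fell: Dlk1, the preadipocyte factor Pref-1, went from 615 FPKM at PN2 to 8.70 and 29.96 (log2 fold change −4.40, SE 0.642, edgeR adjusted p = 0.00838), and Osr1 fell by 2.29. These 2 calls are 20% of the progenitor genes tested, against 23.0% of all genes at this step, so no more than the general share. From E18.5 to adult Dlk1 fell by 10.73, from 746 to 0.22 FPKM.

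**Figure D4:**
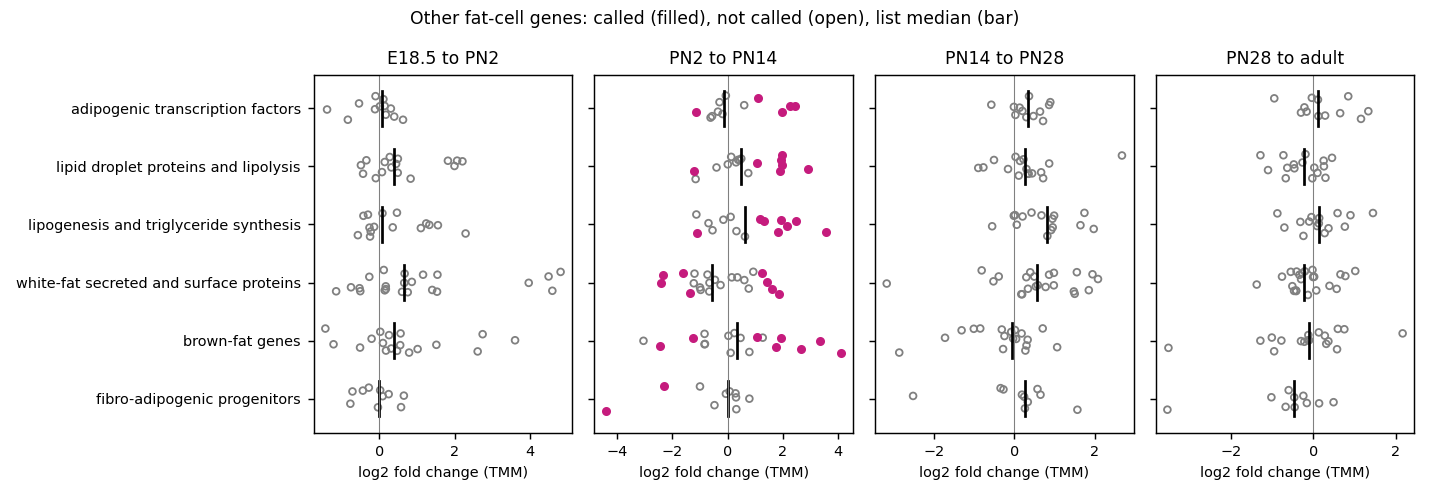
Log2 fold change (counts scaled by TMM) of 93 other fat-cell genes over 4 intervals, by list; filled points were called, open points were not, and bars are list medians. Calls are concentrated from PN2 to PN14 (27 rising, 11 falling, but 19 rising and 31 falling with library size alone). The same holds over all genes tested, with 23.0% called at that step against 0.0178% to 0.521% at the others.

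At the other steps edgeR's quasi-likelihood test, here edgeR for short, called none of the 93. Shares of all genes were taken only for that test, so counts by DESeq2 and the exact test have no background here. From E18.5 to PN2, 29 had an unadjusted p below 0.05 (23 up, 6 down; 6.64% of all genes tested), DESeq2's Wald test called 14 (12 up, 2 down) and edgeR's exact test 18 (16 up, 2 down), and edgeR called 0.0296% of all genes (0.0178% rising, 0.0118% falling). Large values there were Adig at 4.80 (adjusted p = 0.152), Acvr1c at 4.58 (0.115) and Retn at 4.48 (0.122) on the log2 scale by edgeR. From PN14 to PN28, 33 had an unadjusted p below 0.05 (24 up, 9 down; 8.41% of all genes), DESeq2 called 5 and the exact test 13, and edgeR called 0.0178% of all genes (0.0178% rising, 0.00% falling). Fasn at 1.64 (edgeR adjusted p = 0.131), Retn at 1.94 (0.342) and Adig at 2.07 went the way of Adipoq, but were picked after their values were seen. Of the 93, 68 were above 0 at this step and 25 below, such as Angptl4 at −3.17. Fasn had not gone up with Adipoq from E18.5 to PN2 (−0.42). From PN28 to adult, 20 had an unadjusted p below 0.05 (7 up, 13 down; 18.3% of all genes), DESeq2 called 5 and the exact test 6, and edgeR called 0.521% of all genes (0.160% rising, 0.361% falling).

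Some close relatives of the members were more abundant than the fat-cell forms. Fabp3, the carrier of muscle, was at 89.3 FPKM at E18.5, 543 at PN2 and 1159 and 1154 at PN14, and rose from PN2 to PN14 by 1.76 on the log2 scale. Fabp5 went from 250 FPKM at E18.5 to 11.5 in the adult. Ucp3, the uncoupling protein relative of muscle, was at 26.9 FPKM at PN2, 42.9 and 77.0 at PN14 and 33.7 in the adult, against at most 0.42 for Ucp1, and rose from PN2 to PN14 by 1.78. Ucp2 was at 58.7 FPKM at PN2 and 3.51 in the adult, and Pck2, the mitochondrial counterpart of Pck1, at 6.72 at E18.5 and 0.96 in the adult. Cideb, a liver relative of Cidea and Cidec, did not exceed 0.10 FPKM.

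**Figure D5:**
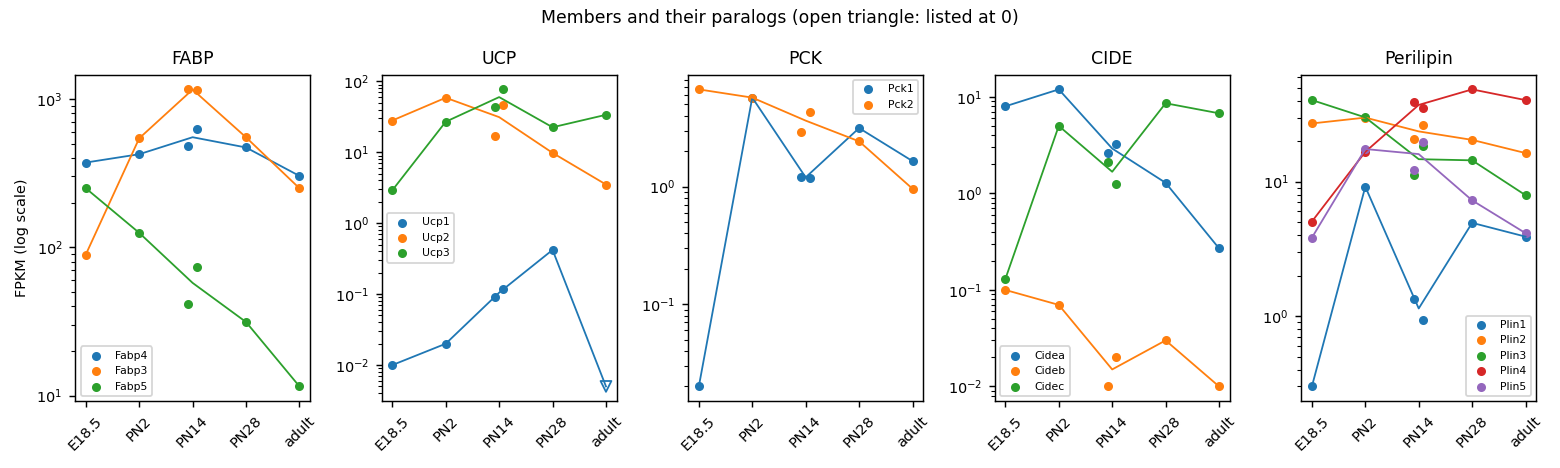
FPKM on log axes of members and their close relatives in 5 gene families, by stage; points are libraries, lines join stage values and an open triangle at 0.005 marks a value listed at 0. Ucp1 stays at or below 0.42 FPKM while Ucp3 reaches 77.0, and Fabp3 passes Fabp4 from PN2 to PN28.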

How the data were processed

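Whole gastrocnemius RNA was sequenced in 6 libraries. The authors aligned paired-end reads to mm9 with TopHat2 2.0.5 and deposited RSEM expected counts and FPKM per RefSeq gene. The RSEM version is not given in the sources used here, and the deposited expected counts are whole numbers. Groups follow the labels. Expected counts were rounded and fitted with edgeR 4.0.16 (R 4.3.3): TMM scaling, filterByExpr with stage as group, 1 quasi-likelihood fit over all 6 libraries, leaving 16882 genes. Spread rests on the PN14 pair (1 residual degree of freedom, common coefficient of biological variation 0.188) and applies it to single libraries. FPKM were used as deposited for levels. With these depths 3 counts equal 0.0131 to 0.0295 CPM after scaling. SE is the absolute log2 fold change divided by the square root of F. Members and lists were chosen with earlier results of these data known. Named list genes are the called genes with the largest changes, up to 4 each way, at 1 FPKM or more in the higher stage. Acvr1c, Lhx8, the uncalled genes, Elovl3, Zic1, Otop1, Fabp5, Ucp2 and Cideb were named after their values were seen. Nothing says that the PN14 mice are of separate litters. The p-values set each change against the spread of that pair, since the other stages, with single libraries, gave none. Alternatives were DESeq2 1.42.0, edgeR's exact test, library size scaling, no filter, pseudocounts and leaving out a PN14 mouse. The fit was tested on simulated data.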

Additional observations from a re-analysis of the deposited data

How the results depend on the processing

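For the 93 other fat-cell genes, counts of calls depended on the test at steps where edgeR's quasi-likelihood test made none. From E18.5 to PN2 there were 14 calls with library size alone, 14 with DESeq2's Wald test, 18 with the exact test and 9 without the count filter. From PN14 to PN28 these were 7, 5, 13 and 2, and from PN28 to adult 6, 5, 6 and 4. The shares of all genes called by these alternatives were not taken, so the counts say nothing of enrichment. With library size alone the median log2 fold change was −0.41 (PN2 to PN14), 0.0727 (PN14 to PN28), −0.26 (PN28 to adult) and −0.23 (E18.5 to adult). Leaving out a PN14 mouse gave medians of 0.16 to 0.27 for the first of these steps and 0.31 to 0.36 for the second, an alternative chosen after seeing the data. The fall of Cidea against the white-fat genes was 32.4-fold with the sum of 8 members, and Ucp1 at PN28 was 8.50% of Plin1 and 0.0667% of that sum. Of 50 member fold changes, 2 changed sign with library size alone, both of Fabp4, and none with DESeq2 size factors. Sizes depended more on the processing: 26 of the 50 moved by more than the SD between the PN14 mice with library size alone. With pseudocounts of 0.1 and 1 this was 17 and 26, and with DESeq2 size factors 0. No paired analysis was possible because only PN14 has numbered replicates. Low counts limit Ucp1, and Lep, Pck1 and Cfd at E18.5.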
